A study of Mus musculus with 9 samples.

Results

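The stretch of mouse chromosome 3 around Unc5c, which encodes a receptor for the axon guidance protein netrin, and 4930590L14Rik, a long intergenic non-coding RNA gene, was described in sorted neuronal nuclei of the cortex. Its members were all genes of the count tables that lay between 135 and 146 Mb (GRCm38) and that had at least 100 read pairs summed over the 9 libraries. These were 56 of the 194 genes annotated in that stretch and of the 55401 genes annotated in all. The stretch was chosen by measured values, the differences of Unc5c and 4930590L14Rik between P301S and wild-type libraries, so differences from wild type are given here as descriptions with no p-values. The comparison of the peptides with each other is given as a test. Just inside the count threshold lay 4930590L14Rik with 103 read pairs and Gm15689 and Clca3a1 with 105 each, and just outside it lay Gm33651 with 98 and Clca3a2 with 72.

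The study profiled RNA of cortical nuclei positive for NeuN, a protein of neuronal nuclei, from mice of 7 to 9 months in 3 groups of 3 libraries. Wild-type mice were untreated, whereas both other groups carried a P301S Tau transgene, a mutant form of the human microtubule-binding protein that aggregates in inherited dementia. One transgenic group was given a scrambled peptide and the other a Cdk5i peptide, named for inhibition of the neuronal kinase Cdk5, in both cases 20 mg/kg into the peritoneum on alternate days. Genotype and injection therefore cannot be told apart in any difference from wild type. The labels name neither the transgenic line nor the promoter of the transgene. In one widely used P301S line published work has placed the transgene on chromosome 3, and where it lay in these mice was not tested. No label states whether libraries stand for separate animals, so the errors and p-values reflect sample-to-sample spread that may be technical only.

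Netrins and related ligands steer growing axons and migrating neurons. Receptors of the DCC family mediate attraction, whereas receptors of the UNC5 family, alone or together with DCC, mediate repulsion and can promote cell death when no ligand is bound. Unc5c is one of several UNC5 genes that cortical neurons express, and long intergenic non-coding RNAs such as 4930590L14Rik are transcribed from the stretches between protein-coding genes, mostly at low levels.

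Libraries held 21584712 to 26715938 assigned read pairs, of which the 56 genes took 0.321 to 0.354%. Replicates of a group differed by more than sampling noise, with a chi-square per gene of 8.82 to 26 and a Spearman correlation across genes of 0.99 or more. The 5 neuronal markers summed to 13490 to 15180 CPM (read pairs scaled to a common library total) in wild type. With scrambled peptide the sum was 13000 to 14070 and with Cdk5i 13570 to 15580 CPM. Markers of inhibitory neurons, 8 of 8 of which were tested, summed to 1008 to 1175, 889 to 977 and 1059 to 1202 CPM in the same order, and those of excitatory cortical neurons to 705 to 742, 676 to 750 and 545 to 783 CPM. Astrocyte markers summed to 11.6 to 21.2, 12.03 to 14.7 and 12.8 to 15.3 CPM, oligodendrocyte markers to 66.1 to 76.8, 71.8 to 101.9 and 69.1 to 115 CPM, and oligodendrocyte precursor markers to 19.3 to 24.4, 14.2 to 21.6 and 12.4 to 23.4 CPM. Microglial markers summed to 2.82 to 4.32, 3.59 to 5.87 and 3.24 to 3.71 CPM, and vascular markers to 1.45 to 2.72, 1.89 to 2.77 and 2.10 to 3.35 CPM. No listed marker was at 0 in all libraries, and the lowest was the endothelial gene Cldn5 with 6 read pairs in total. The samples are bulk nuclei, in which fewer cells of a type and less RNA per cell cannot be told apart.

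Because 4930590L14Rik was read in every P301S library and in no wild-type library, its sequence is shown first. The gene (ENSMUSG00000106540, plus strand, 140951876 to 140953247) has an annotated transcript of 2 exons in GENCODE M21 (GRCm38), which is 836 bases long. Exon 1 takes 37 bases (140951876 to 140951912) and exon 2 takes 799 bases (140952449 to 140953247), with an intron of 536 bases between them. The first line below joins exon 1, in capitals, to the first 60 bases of exon 2. The second line gives the last 60 bases of the gene (chr3:140953188-140953247), where capitals mark AATAAA, the letters of a polyadenylation signal.
4930590L14Rik splice junction: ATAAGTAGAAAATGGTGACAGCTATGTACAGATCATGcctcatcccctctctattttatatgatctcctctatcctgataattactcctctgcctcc
4930590L14Rik end: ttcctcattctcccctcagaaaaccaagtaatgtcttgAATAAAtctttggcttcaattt
Of the 797 stretches of 40 bases in this transcript, 0 occurred in any of 141766 other GENCODE transcripts, so no other annotated transcript holds a copy of that length.

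The 250 bases before the RefSeq start of 4930590L14Rik (GRCm38.p6, chr3:140951585-140951834, plus strand) held 0 CG pairs, with 40% G and C. Those before the first RefSeq start listed for Pdlim5 (chr3:142395697-142395946, minus strand) held 15 CG pairs, with 62.8% G and C. Pdlim5 is a protein-coding neighbour that is also described below. The window before another RefSeq start of Pdlim5 (chr3:142391851-142392100), not printed here, held 1 CG pair and 1 TATAAA, with 31.6% G and C. Capitals mark TATAAA on either strand in the first line and CG in the second.
4930590L14Rik upstream: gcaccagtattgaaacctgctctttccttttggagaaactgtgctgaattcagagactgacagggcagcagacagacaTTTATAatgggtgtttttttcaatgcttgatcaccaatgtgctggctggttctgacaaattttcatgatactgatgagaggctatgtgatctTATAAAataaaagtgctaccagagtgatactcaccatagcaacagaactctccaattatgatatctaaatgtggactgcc
Pdlim5 upstream: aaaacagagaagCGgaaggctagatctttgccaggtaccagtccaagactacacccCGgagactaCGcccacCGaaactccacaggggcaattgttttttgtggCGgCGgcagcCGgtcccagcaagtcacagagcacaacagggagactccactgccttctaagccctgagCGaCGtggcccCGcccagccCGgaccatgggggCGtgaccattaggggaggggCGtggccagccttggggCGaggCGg
Over 32851 RefSeq windows of that length, TATAAA on either strand occurred in 12.4%, no CG pair in 7.87%, and the median was 6 CG pairs and 52.4% G and C. Windows were found for 44 of the 56 genes. Over the first window listed for each, the median was 17 CG pairs, and 4930590L14Rik was the 1 gene with none. The window before the RefSeq start of Unc5c (chr3:141465314-141465563) held 23 CG pairs, with 71.2% G and C. It lies inside the gene as annotated by Ensembl, which starts at 141465216. These letter matches are a description of the windows and do not show that a factor binds there.

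4930590L14Rik was read in the 3 scrambled-peptide libraries with 20, 15 and 17 read pairs, in the 3 Cdk5i libraries with 17, 14 and 20, and in the 3 wild-type libraries with 0, 0 and 0. Every P301S library thus lay above every wild-type library, and the P301S groups overlapped each other. In CPM this was 0.701 ± 0.0611 (SD, n = 3) for scrambled peptide and 0.685 ± 0.132 for Cdk5i. The wild-type group as a whole was set to a floor of 3 counts, or 0.0465 CPM. The observed level was 15.1-fold this floor with scrambled peptide and 14.7-fold with Cdk5i. The floor covers counting error of the wild-type group only. Counting error of the P301S groups is not in these folds, and PCR copies are not independent molecules. All 103 read pairs of the gene came from P301S libraries, so it passed the count threshold only through the groups where it was high.

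The long gap around 4930590L14Rik held a few further reads, all of them in P301S libraries. Between the end of Stpg2 and the start of Gm15688 (139710300 to 141457975, 1.75 Mb) lie 14 annotated genes, of which 4930590L14Rik is the only one that reached the count threshold. Of the 13 others, 5 had any read pair, 57 in all, with 0 in wild type, 31 in the scrambled-peptide group and 26 in the Cdk5i group. The long intergenic non-coding RNA gene Gm43049 (140692038 to 140760704, minus strand) had 7, 1 and 9 read pairs with scrambled peptide and, with Cdk5i, 9, 8 and 0. ENSMUSG00000118659 (140909770 to 140917459, minus strand), which has no symbol here, had 4, 1 and 4 with scrambled peptide and 2, 2 and 3 with Cdk5i. Gm43049 was thus missing from 1 P301S library, whereas ENSMUSG00000118659 was read in all 6. The remaining 3 genes, Gm32754, Gm31211 and Gm6214, had 4, 2 and 1 read pairs, in 3, 1 and 1 of the 6 P301S libraries. Such few reads had 6 P301S libraries and only 3 wild-type libraries to fall in. These genes lie below the count threshold and were looked at because of their place next to 4930590L14Rik.

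**Figure D1:**
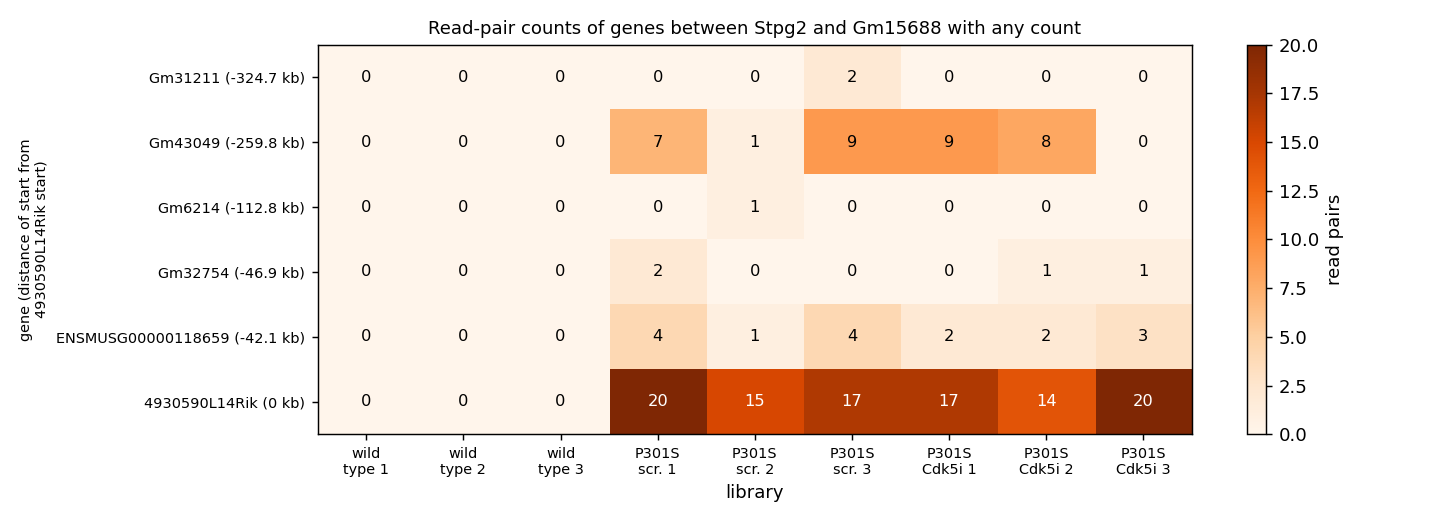
Read pairs per library (columns) of the 6 genes with any read between Stpg2 and Gm15688 (rows, with the distance of each start from that of 4930590L14Rik in kb). The 3 wild-type columns hold 0 throughout, and the 6 P301S columns of 4930590L14Rik hold 14 to 20.

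Across the genome, 32394 genes had any read pair, and 18 of them (0.0556%) were read in all 6 P301S libraries and in no wild-type library. 4930590L14Rik and ENSMUSG00000118659 were 2 of these 18. By total, 4930590L14Rik with 103 read pairs came after only the processed pseudogene Lamr1-ps1 on chromosome 2 with 366, and the next was AC140413.3 with 28. The reverse pattern, reads in all 3 wild-type libraries and in no P301S library, was found in 14 genes (0.0432%) with 3 to 5 read pairs each, none of them in the stretch. The shares are not directly comparable, since the groups differ in size and the first pattern asks for reads in 6 libraries, the reverse in 3.

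Unc5c (ENSMUSG00000059921, plus strand, 141465216 to 141834924) was the second most read of the 56 genes and lay lower in both P301S groups. Its level was 802, 739 and 714 CPM in the wild-type libraries, 468, 482 and 497 CPM with scrambled peptide, and 488, 559 and 528 CPM with Cdk5i. All 6 P301S libraries lay below all 3 wild-type libraries, and the P301S groups overlapped. The group means were 752 ± 45.3, 482 ± 14.5 and 525 ± 35.9 CPM (SD, n = 3). The log2 fold change was -0.64 (SE 0.07) for scrambled peptide against wild type and -0.52 (SE 0.07) for Cdk5i against wild type, and both groups together stood at 0.669 times the wild-type level. In wild type Unc5c made up 20.3 to 23.1% of the stretch's read pairs, against 14.7 to 15.3% for scrambled peptide and 13.7 to 16.9% for Cdk5i. Exons cover 5.18% of Unc5c. Reads were counted over whole genes, so the values separate neither exonic from intronic reads nor its 8 annotated transcripts.

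Of the 8 markers of inhibitory neurons, 3 had negative log2 fold changes with scrambled peptide, with a median of 0.05 over the 8. Only Adarb2, which makes up most of their sum, had no overlap there, with 850, 917 and 806 CPM in the wild-type libraries and 694, 670 and 735 CPM with scrambled peptide. With Cdk5i Adarb2 had 907, 944 and 810 CPM. Its part in the Unc5c level was not tested.

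**Figure D2:**
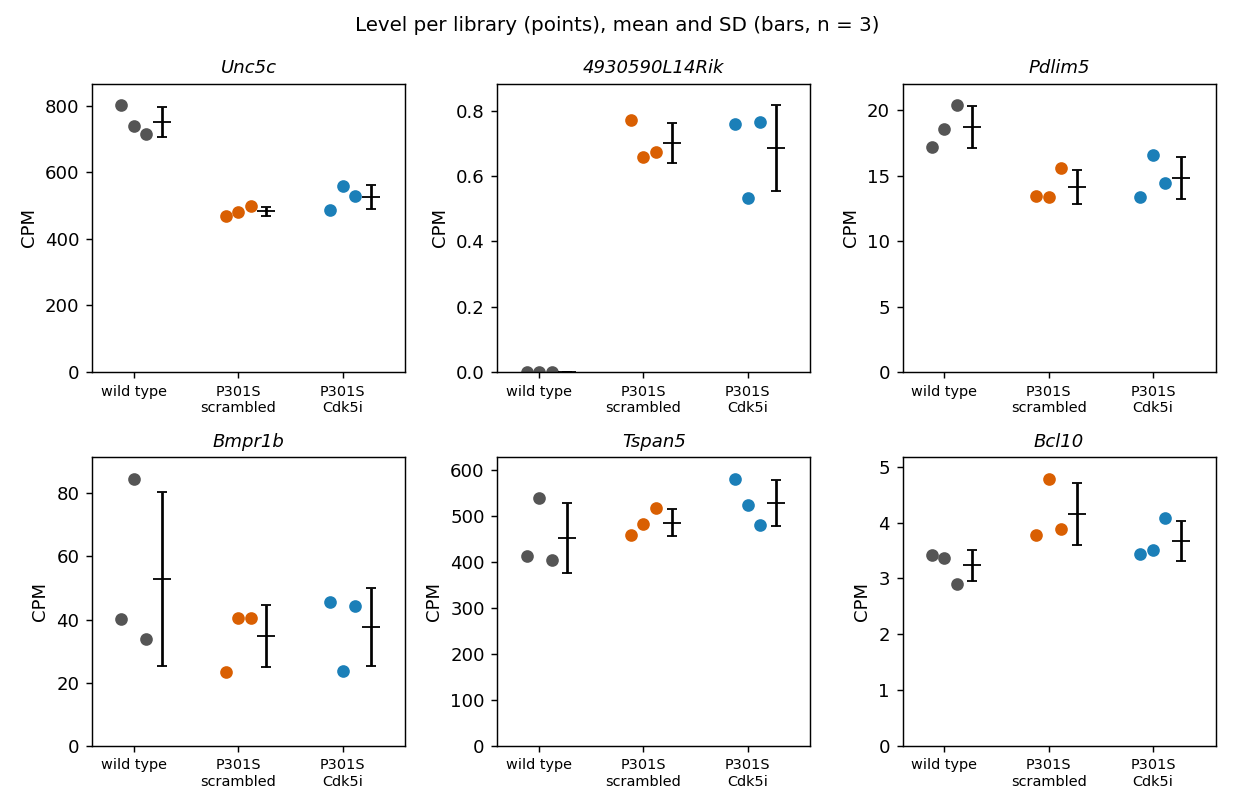
CPM in each library (points) with the mean and SD of the 3 libraries of a group (bars), for Unc5c, 4930590L14Rik, Pdlim5, Bmpr1b, Tspan5 and Bcl10, each on its own axis from 0. Unc5c and Pdlim5 lie lower and 4930590L14Rik and Bcl10 higher in all 6 P301S libraries than in any wild-type library, whereas Bmpr1b and Tspan5 overlap.

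Unc5c and 4930590L14Rik were the 2 members past an adjusted p of 0.05 in edgeR's quasi-likelihood test, with Benjamini-Hochberg adjustment over 16046 genes, in scrambled peptide against wild type, where 0.081% of all genes tested passed. The same 2 passed in Cdk5i against wild type, where 0.0748% of all genes passed, and in both P301S groups against wild type, where 0.081% passed. Since these contrasts led to the choice of the stretch and share the wild-type libraries, the counts are given as a description. Without scrambled replicate 2 the first count was 0, and it was 1 without wild-type replicate 2 or 3. The second was 0 without wild-type replicate 1 or 3 or Cdk5i replicate 1 or 3, and 1 without wild-type replicate 2. The third was 1 without wild-type replicate 3. A filter of 50 mean counts, which removes 4930590L14Rik, gave 1, 0 and 1 in that order, and DESeq2 gave 2, 1 and 1. In Cdk5i against wild type the count was also 0 in a fit of only the groups compared and 1 with non-robust dispersion. With the replicate number as a block each of these counts was 0, and 2, 2 and 1 of all genes passed in the same order. Same-numbered libraries were not taken as pairs.

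By position, the 9 consecutive members from Gm15688, which starts just before Unc5c, to A830019L24Rik, all had negative log2 fold changes in both comparisons with wild type. The last of them, A830019L24Rik, stood at -0.007 (SE 0.40) with Cdk5i, far less than its SE. This run was picked out after its values were seen. Its median was -0.32 with scrambled peptide, where 48.3% of all genes tested were negative, and -0.34 with Cdk5i, where 51.2% were. It was -0.37 with both groups together, where values ranged from -0.58 in Unc5c to -0.11 in Pkn2. These medians include Unc5c, which itself led to the choice of the stretch. Without Unc5c the medians of the run were -0.31 with scrambled peptide, -0.29 with Cdk5i and -0.28 with both groups together. Of the 46 members outside the run apart from 4930590L14Rik, 24 were negative with both groups together, with a median of -0.004. Over all genes tested 49.7% were negative, and on chromosome 3 outside the stretch 58.2% were. Between the peptides 5 of the 9 were negative, beside 52.8% of all genes.

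Within the run, Pdlim5 (minus strand, 142239590 to 142395696), which encodes a PDZ and LIM domain protein that tethers protein kinases to the actin cytoskeleton, stood below wild type in every P301S library. It had 17.2, 18.5 and 20.4 CPM in the wild-type libraries, 13.5, 13.3 and 15.6 CPM with scrambled peptide, and 13.4, 16.6 and 14.5 CPM with Cdk5i. The log2 fold change was -0.41 (SE 0.11) and -0.34 (SE 0.11) in that order. Gtf2b, which encodes the general transcription factor TFIIB, had 14.2, 13.7 and 13.9 CPM in the wild-type libraries, 12.5, 13.1 and 12.7 CPM with scrambled peptide, and 11.4, 12.2 and 12.3 CPM with Cdk5i. Its 3 groups did not overlap, and its log2 fold change with both P301S groups together was -0.17 (SE 0.07).

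Bmpr1b (minus strand, 141837136 to 142169425), a type I receptor for bone morphogenetic proteins whose end lies next to that of Unc5c, had 40.1, 84.6 and 34.0 CPM in wild type. It had 23.5, 40.6 and 40.5 CPM with scrambled peptide and 45.6, 23.6 and 44.2 CPM with Cdk5i. The groups overlapped, and wild-type replicate 2 stood far above the other libraries. Its log2 fold change with both P301S groups together was -0.54 (SE 0.39), and -0.03 without that library.

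The 2 antisense genes of the run lie on the minus strand at the start of Unc5c and inside it. Gm15688 (141457976 to 141465333) had 17, 19 and 25 read pairs in wild type, 20, 14 and 18 in the scrambled-peptide group and 8, 23 and 17 in the Cdk5i group. Gm15689 (141662889 to 141682900) had 18, 10 and 10, then 11, 7 and 17, then 12, 11 and 9 in the same order. In CPM the scrambled-peptide libraries of Gm15688 (0.615 to 0.771) lay below its wild-type libraries (0.806 to 1.14), its Cdk5i libraries (0.357 to 0.876) overlapped both, and the groups of Gm15689 overlapped. The log2 fold change with both P301S groups together was -0.50 (SE 0.29) for Gm15688 and -0.39 (SE 0.36) for Gm15689. Counting used strand, and how many of these reads came from the far more abundant Unc5c transcript was not tested. Kyat3, an aminotransferase of kynurenine metabolism, Pkn2, a serine-threonine protein kinase, and the non-coding gene A830019L24Rik completed the run at -0.18 (SE 0.17), -0.11 (SE 0.05) and -0.15 (SE 0.35).

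**Figure D3:**
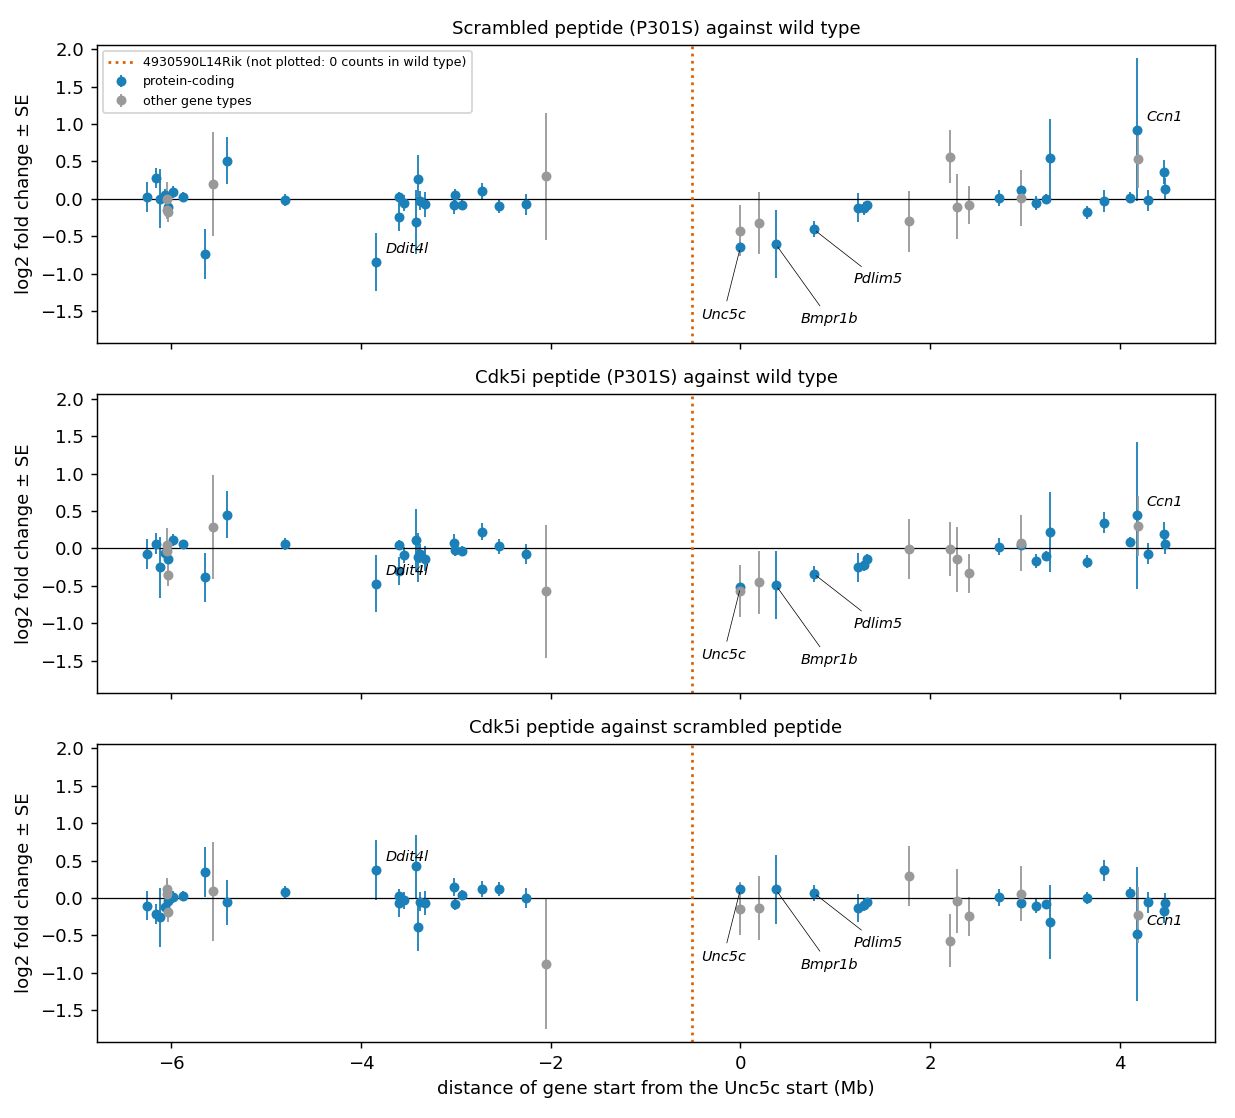
Log2 fold change ± SE of 55 members against the distance of each gene start from the Unc5c start in Mb, for both comparisons with wild type and for the peptides against each other; the dotted line marks 4930590L14Rik, which is not plotted because it had 0 counts in wild type. The genes from Unc5c to about 2 Mb beyond it lie below 0 in the upper 2 panels and around 0 in the lowest.

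In wild type the members spanned a wide range of levels per length of gene. The highest was the small nuclear RNA gene Gm24260 at 31.8 ± 16.6 CPM per kb (SD, n = 3), a short gene whose level ranged from 0.833 to 6.01 CPM over the 9 libraries, with overlapping groups. Ppp3ca, the catalytic subunit of the calcium-activated phosphatase calcineurin, followed at 3.94 ± 0.163 CPM per kb and Tspan5, a tetraspanin that regulates trafficking of the protease ADAM10, at 2.73 ± 0.455. Ube2d3, a ubiquitin-conjugating enzyme, stood at 2.16 ± 0.0627, Unc5c at 2.03 ± 0.123 and 4930539J05Rik, antisense to Ube2d3, at 1.86 ± 0.0557 CPM per kb. Of neighbours in this order, Ube2d3 and Unc5c overlapped in their wild-type libraries and the others did not.

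**Figure D4:**
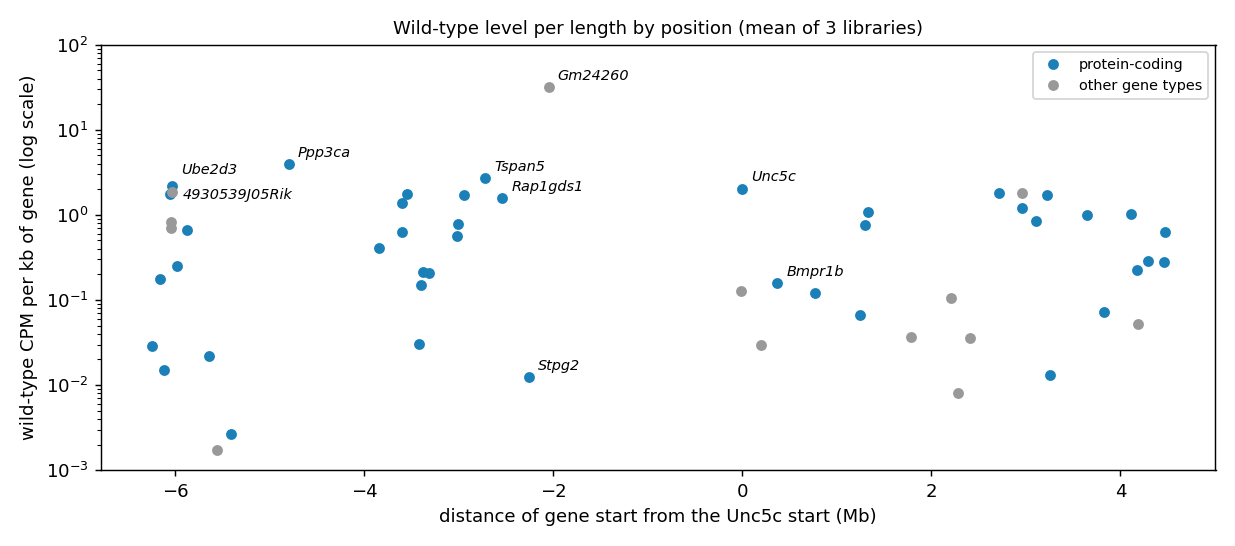
Mean wild-type CPM per kb of gene (log axis, 3 libraries) against the distance of each gene start from the Unc5c start in Mb, with protein-coding genes and other gene types in different colours. Unc5c stands at 2.03 CPM per kb, and the 2 Mb before it hold no plotted gene apart from Gm15688 right at its start.

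Most other members differed little from wild type. Apart from Unc5c and 4930590L14Rik, 38 of the other 54 members were within 0.2 of 0 on the log2 scale with both P301S groups together, and their median size of change was 0.12, the same as the 0.12 over all genes tested. Among all 56 members, groups that did not overlap were found in 4 higher and 9 lower with scrambled peptide. Of all genes tested, 8.26% and 8.03% did so. With Cdk5i there were 3 higher and 8 lower members, beside 8.03% and 8.22% of all genes. With all 6 P301S libraries on one side of wild type there were 2 higher and 5 lower members, beside 3.22% and 3.28%. The 2 higher were 4930590L14Rik and Bcl10, and the 5 lower were Unc5c, Pdlim5, Gtf2b, 4930539J05Rik and, named after its values were seen, Selenof. Both genes that led to the choice of the stretch are in these counts. Among the other 54 members there were 3 higher and 8 lower with scrambled peptide, and 2 and 7 with Cdk5i. With all 6 P301S libraries on one side there were 1 and 4.

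Among receptors and membrane organisers of the list, 3 members were tested, of which Unc5c is described above. Tspan5 had 413, 539 and 403 CPM in the wild-type libraries, 458, 481 and 516 CPM with scrambled peptide, and 580, 522 and 480 CPM with Cdk5i. The groups overlapped, and the log2 fold change with both P301S groups together was 0.16 (SE 0.10).

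Of the listed genes of intracellular signalling, 8 were tested, 7 of them members, and 0 passed the threshold in either comparison with wild type. Ppp3ca stood at 1055 ± 43.6 CPM in wild type, 1044 ± 61.0 CPM with scrambled peptide and 1098 ± 115 CPM with Cdk5i, and both together differed from wild type by 0.02 (SE 0.07) on the log2 scale. Rap1gds1, an exchange factor for small GTPases and the nearest abundant gene before the gap, stood at 233 ± 13.8, 218 ± 23.4 and 237 ± 26.99 CPM. Bcl10, an adaptor that links antigen receptors to NF-kappaB, had 3.42, 3.37 and 2.91 CPM in the wild-type libraries, 3.78, 4.78 and 3.89 CPM with scrambled peptide, and 3.44, 3.51 and 4.09 CPM with Cdk5i. Its lowest P301S library lay just above its highest wild-type library, and the log2 fold change with both groups together was 0.27 (SE 0.14). Nfkb1, the NF-kappaB subunit gene, stood at 70.1 ± 1.82, 71.5 ± 4.55 and 72.8 ± 2.76 CPM. Ddit4l, an inhibitor of mTOR signalling, had 3.84, 2.53 and 1.77 CPM in the wild-type libraries, 1.39, 1.80 and 1.35 CPM with scrambled peptide and 3.30, 1.37 and 1.26 CPM with Cdk5i. The wild-type and scrambled-peptide libraries of Ddit4l nearly separated, and 1 Cdk5i library lay among wild type.

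Genes of protein synthesis and turnover lay close to wild type, and 0 of 6 tested, 5 of them members, passed the threshold. Ube2d3 had 66.6, 62.8 and 64.8 CPM in the wild-type libraries, 57.4, 62.9 and 60.7 CPM with scrambled peptide, and 60.9, 57.3 and 57.4 CPM with Cdk5i, so that the Cdk5i libraries lay below all of wild type. Its antisense gene 4930539J05Rik had 4.65, 4.63 and 4.40 CPM in the wild-type libraries, 4.05, 4.30 and 3.81 CPM with scrambled peptide, and 3.84, 3.70 and 3.17 CPM with Cdk5i. All P301S libraries of 4930539J05Rik lay below wild type, with a log2 fold change of -0.26 (SE 0.12) for both groups together. Eif4e, which binds the cap of messenger RNAs, stood at 56.8 ± 3.39, 53.9 ± 2.85 and 55.3 ± 0.663 CPM.

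Of 12 listed ion channel and transporter genes 4 were members, and 0 of these 4 passed the threshold. The other Clca genes listed had too few reads to be members, and Mcoln2 and Mcoln3 lie beyond 146 Mb. Slc39a8, an importer of zinc and manganese, had 1.57, 1.03 and 1.59 CPM in the wild-type libraries, 0.925, 0.615 and 0.952 CPM with scrambled peptide and 1.43, 1.14 and 0.649 CPM with Cdk5i. Its scrambled-peptide libraries lay below wild type, and its Cdk5i libraries overlapped both. Of the 6 alcohol dehydrogenase genes clustered in the stretch, Adh5, the formaldehyde-detoxifying and most widely expressed of them, was the only member, at 7.09 ± 0.420, 6.72 ± 0.615 and 7.45 ± 0.630 CPM. Its log2 fold change with both P301S groups together was -0.005 (SE 0.11).

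Heparan sulfate sulfation, the matrix and the cytoskeleton were represented by Hs2st1, Col24a1, Ccn1 and Pdlim5. Hs2st1, the heparan sulfate 2-O-sulfotransferase, had 175, 162 and 173 CPM in wild type. Its 179, 176 and 197 CPM with scrambled peptide did not overlap these, and its 179, 184 and 166 CPM with Cdk5i did. Ccn1, a secreted matrix protein, varied too widely to place, with 0.140 to 1.14 CPM in wild type and 0.134 to 2.58 CPM over both P301S groups. Odf2l, a centriolar protein gene, had 36.4, 32.4 and 36.6 CPM in the wild-type libraries, 29.2, 31.9 and 32.2 CPM with scrambled peptide and 34.0, 27.8 and 31.6 CPM with Cdk5i. Its scrambled-peptide libraries lay below wild type and its Cdk5i libraries overlapped it. Of the metabolic, mitochondrial and lysosomal list, 5 genes were tested, 4 of them members, and 0 passed the threshold, and likewise 0 of 3 tested genes of chromatin and mitosis, 2 of them members.

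The comparison of the peptides asked whether Cdk5i moved any of these genes away from scrambled peptide within the P301S genotype. In edgeR's quasi-likelihood test 0 of the 56 members passed an adjusted p of 0.05, beside 0.0125% of all genes tested, and limma-voom and DESeq2 also called 0, beside 0.128% of all genes in DESeq2. At an unadjusted p under 0.05 there was 1 member by each of the 3 tools, beside 5.33% of all genes in edgeR. In 1 higher and 2 lower members the groups did not overlap, beside 4.95% and 5.38% of all genes. Unc5c stood 0.12 higher with Cdk5i on the log2 scale, with a 95% interval of -0.04 to 0.28 and an edgeR adjusted p of 0.945. For 4930590L14Rik the difference was -0.04, with an interval of -0.79 to 0.71 and an edgeR adjusted p of 0.997. Pdlim5 differed by 0.07, with an interval of -0.16 to 0.30 and an edgeR adjusted p of 0.976. A p above the threshold does not show that the groups are alike, and the intervals bound the differences that these 3 libraries a group could have missed.

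Col24a1, a fibrillar collagen gene, was the member with the lowest p between the peptides. It had 19.4, 19.1 and 16.7 CPM with scrambled peptide, 28.4, 25.0 and 18.0 CPM with Cdk5i, and 18.8, 20.0 and 17.3 CPM in wild type. The peptide groups overlapped, since the lowest Cdk5i library lay within the scrambled-peptide libraries. The difference was 0.37 on the log2 scale, with a 95% interval of 0.06 to 0.68 and an edgeR adjusted p of 0.891. The members whose groups did not overlap were Cisd2, an iron-sulfur protein of the endoplasmic reticulum and mitochondria, at -0.12 (edgeR adjusted p 0.945), Gtf2b at -0.09 (edgeR adjusted p 0.966) and the predicted gene Gm43379 at 0.12 (edgeR adjusted p 0.966).

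The windows of the same width on either side were counted for comparison. By the same rule the window from 124 to 135 Mb held 51 genes and that from 146 to 157 Mb held 38. With both P301S groups together, 33 of 51 and 25 of 38 genes were negative, with medians of -0.08 and -0.06, beside 33 of 56 in the stretch with a median of -0.05. The median size of change was 0.19 and 0.10 in the windows and 0.12 in the stretch. On chromosome 3 outside the stretch 58.2% of genes were negative, with a median of -0.03. Past an edgeR adjusted p of 0.05 were 1 and 0 genes of the windows, beside 0.081% of all genes tested. In the stretch 2 passed, Unc5c and 4930590L14Rik, which led to its choice, and 0 of the other 54 members did. Lower in all 6 P301S libraries than in wild type were 4 and 5 genes of the windows, beside 5 in the stretch with Unc5c included. Of the 1 Mb bins of the stretch, those from 141 to 142 Mb and from 142 to 143 Mb each held 4 members, all negative, with medians of -0.52 and -0.18. The bin from 141 to 142 Mb holds Unc5c, which led to the choice of the stretch, Bmpr1b, and the antisense genes Gm15688 and Gm15689. The value of Bmpr1b rests on wild-type replicate 2, and the antisense genes have few reads. Away from these bins the medians ranged from -0.17 to 0.25, leaving out the bin that holds 4930590L14Rik alone.

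Other genes of the netrin pathway were taken from a list of 16 ligands, receptors and partners, of which 15 were tested. In the main fit 0 passed the threshold in any comparison with wild type. With both P301S groups together Unc5d passed in 1 of 16 alternative settings. Unc5d, the other abundant UNC5 receptor gene, had 1364, 1035 and 1159 CPM in the wild-type libraries, 989, 918 and 909 CPM with scrambled peptide, and 897, 1195 and 952 CPM with Cdk5i. Its scrambled-peptide libraries lay below wild type and its Cdk5i libraries overlapped it, with log2 fold changes of -0.34 and -0.22. Dcc, the attractive netrin receptor, stood at 1177 ± 111 CPM in wild type, 997 ± 46.8 CPM with scrambled peptide and 1133 ± 99.96 CPM with Cdk5i, log2 fold changes of -0.24 and -0.05. Neo1, a DCC relative, stood at 145 ± 5.61, 130 ± 6.96 and 139 ± 2.63 CPM. The scrambled-peptide libraries of Dcc and Neo1 also lay below wild type, and their Cdk5i libraries overlapped it. With scrambled peptide 3 of the 15 genes were lower without overlap and 0 higher, beside 8.03% and 8.26% of all genes tested. With Cdk5i 1 was lower and 2, Unc5a among them, were higher, beside 8.22% and 8.03%. With all 6 P301S libraries on one side of wild type 0 were lower and 0 higher, beside 3.28% and 3.22%.

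Unc5a, Unc5b and Dscam did not share the order of group means of Unc5d, Dcc and Neo1. Unc5a stood at 94.1 ± 8.20, 104 ± 10.1 and 108 ± 11.02 CPM and Unc5b at 6.75 ± 0.685, 7.73 ± 0.307 and 7.31 ± 0.526 CPM, both higher on average in each P301S group than in wild type. Dscam, a further netrin receptor, stood at 1135 ± 56.0, 1133 ± 50.3 and 1139 ± 56.0 CPM. The ligand gene Ntn1 stood at 17.0 ± 5.41, 21.7 ± 5.64 and 23.6 ± 9.38 CPM, with overlapping groups. Over the 15 genes the median log2 fold change was -0.046 with scrambled peptide and 0.006 with Cdk5i, beside 0.008 and -0.005 over all genes tested.

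**Figure D5:**
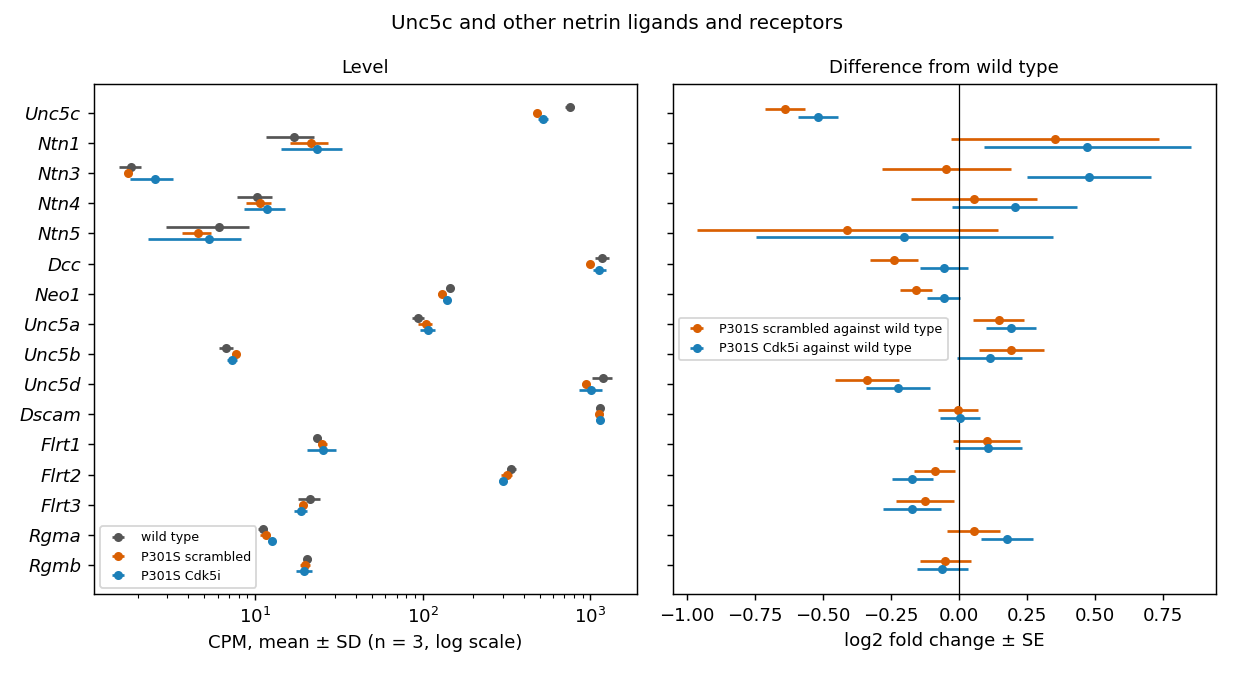
Left, mean CPM ± SD (3 libraries, log axis) of Unc5c and 15 other netrin ligands, receptors and partners in the 3 groups; right, their log2 fold change ± SE against wild type. Unc5c lies at -0.64 and -0.52, and Unc5d is next among the abundant receptors at -0.34 and -0.22.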

How the data were processed

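The authors deposited 1 table of raw read-pair counts per gene and library. Per the file headers, featureCounts 2.0.0 counted read pairs by strand over whole genes, introns included, of Ensembl release 102 (GRCm38), and the submitters' processing notes also name STAR 2.7.9a and DESeq2 1.36.0. The libraries came from a stranded total RNA kit with paired reads of 40 bases, per the labels' protocols. Such counts drop read pairs that fall on overlapping genes of 1 strand, and 14 members have such an overlap.

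Counts were analysed in R 4.3.3 with edgeR 4.0.16: filterByExpr by group, TMM scaling and a robust quasi-likelihood fit of 3 group means to 9 libraries, with adjustment over 16046 genes. CPM uses library totals times TMM factors. Gene types and exons came from GENCODE M21 and upstream windows from RefSeq (GRCm38.p6). The fit was tested on simulated counts. Intervals are at 95%.

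Members and lists were chosen with earlier results of these data known. Named genes are Unc5c, 4930590L14Rik, their 3 nearest members on each side, members past the threshold, up to 4 members per direction with the largest change, at least 50 counts on average and groups that do not overlap, the 6 highest by wild-type level, and examples from the lists. Ddit4l, Slc39a8, Ccn1, Col24a1, Kyat3, Pkn2 and A830019L24Rik are list examples or belong to the run. Alternatives were DESeq2 1.42.0, limma-voom (limma 3.58.1), DESeq2 size factors, other low-count filters, non-robust dispersion, fits of only the groups compared, a replicate block, and leaving out each library.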

Additional observations from a re-analysis of the deposited data

How the results depend on the processing

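The count of members past the threshold was 2 in each comparison with wild type and 0 between the peptides. In scrambled peptide against wild type it was 1 with a filter of 50 mean counts, which removes 4930590L14Rik by construction, and 0 to 2 with single libraries left out. In Cdk5i against wild type it was 1 with DESeq2, which gave no adjusted p for 24 members, 1 with non-robust dispersion, 0 with the filter of 50 mean counts, 0 in a fit of only the groups compared, and 0 to 2 with single libraries left out. With both P301S groups together it was 1 with DESeq2, which again gave no adjusted p for 24 members. It was 1 with the filter of 50 mean counts and 1 to 2 with single libraries left out. Without a filter on low counts it was 3 in each comparison with wild type, where Pdlim5 was added with scrambled peptide and with both groups together and Col24a1 with Cdk5i. Between the peptides it was then 1 (Col24a1), and it was 0 with any single library left out. The causes of the other changes were not tested.

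With the replicate number as a block the counts were 0, 0 and 0 against wild type and 0 between the peptides. Same-numbered libraries correlated at -0.308 to 0.171 in their deviations from group means, so the numbers were not taken as pairs. With single libraries left out, 11 values of 4 uncalled differences changed sign. With both P301S groups together, Gm24260 ranged from -0.59 to 0.12, Rap1gds1 from -0.074 to 0.014 and Ppp3ca from -0.023 to 0.056, and between the peptides 4930590L14Rik ranged from -0.12 to 0.12. For single genes, 540 other values kept their direction and side of the threshold, 24 no longer passed it and 3 newly passed it. A further 2 values, both of 4930590L14Rik, were given no adjusted p, in Cdk5i and in both P301S groups against wild type. Those that newly passed were Pdlim5 with scrambled peptide, and Pdlim5 and Unc5d with both groups together. Over all genes, DESeq2 called 72, 112 and 26 genes and a fit without a low-count filter 318, 408 and 159, beside 13, 12 and 2, in scrambled peptide and Cdk5i against wild type and between the peptides. Depth limits the genes near the count threshold most: 4930590L14Rik rests on 103 read pairs.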

Other observations

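Of the 138 genes of the stretch under the count threshold, 59 had 0 read pairs in all libraries. Gm33651, a long intergenic non-coding RNA gene about 2 Mb beyond Unc5c (143576614 to 143589170), had 20 read pairs in wild type, 42 in the scrambled-peptide group and 36 in the Cdk5i group. The interferon-induced GTPase gene Gbp7 had 18, 24 and 10 read pairs in the same order, and the endothelial gene Emcn had 13 in each group. The gastric alcohol dehydrogenase gene Adh7 had 1, 8 and 1. These genes were picked after their values were seen, and none was tested.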
